A study of Homo sapiens with 4 samples.

Results

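The genes of the malate-aspartate and glycerol phosphate shuttles were followed in RNA-seq of lung adenocarcinoma cells in which circZFR had been silenced. They are MDH1, MDH2, GOT1, GOT2, SLC25A11, SLC25A12, SLC25A13, GPD1L and GPD2, 9 of 40205 genes listed. Of these, 8 were taken for the reaction they catalyze or the transport they carry out, and MDH1 was also chosen for its low values after silencing, so its difference between groups is given as a description without a p-value. All 9 passed the filter on low values and were among the 13885 genes tested. The 4 libraries came from 2 groups of 2: NC 1 and NC 2, transfected with a control siRNA, and si-circZFR 1 and si-circZFR 2, transfected with an siRNA against circZFR, a circular RNA made from exons of ZFR. All cells grew in RPMI medium with fetal calf serum and were transfected for 24 h, without a further treatment or genetic change named. They came from a single cell line with a single siRNA against the circle. The labels name the line as H1299 and the study as A549.

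Glycolysis turns cytosolic NAD+ into NADH, and the inner mitochondrial membrane does not let NADH through. In the malate-aspartate shuttle, cytosolic malate dehydrogenase spends NADH to reduce oxaloacetate to malate, which crosses into the matrix and is oxidized there to return the NADH. Aspartate and 2-oxoglutarate return to the cytosol, in exchange for glutamate and malate. In the glycerol phosphate shuttle, dihydroxyacetone phosphate is reduced in the cytosol and the glycerol 3-phosphate is oxidized on the outer face of the inner membrane, which passes the electrons to ubiquinone. Both routes feed cytosolic electrons to oxidative phosphorylation.

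Library totals, recovered from the RPKM steps, ranged from 11040050 to 12816868 reads. Levels below are scaled RPKM, the deposited reads per kilobase of gene and library size after a further scaling between libraries, so they may be compared between genes. The keratin genes KRT8 and KRT18 were high in all libraries, while the lung lineage factor NKX2-1 was at 0 in all 4. Of 11 markers of A549 cells, 0 passed limma (all genes tested: 0.0576%) and 1 passed limma-voom (all genes tested: 2.15%). Of the same 11, 5 (CDH1, EPCAM, FGA, FGB and FGG) were higher in si-circZFR at an unadjusted limma p under 0.05 (all genes tested: 10.2%). The summed level of these 5 was 18.1 and 15.7 in the NC libraries and 38.1 and 36.2 in the si-circZFR libraries. Because the 5 were picked as higher, their sum had to be higher in si-circZFR and adds no support. EPCAM rested on 4, 4, 18 and 28 reads and reached an RPKM of 1 only in the si-circZFR libraries. The summed level of all 11, carried by AKR1B10, AKR1C1, AKR1C2, AKR1C3, ALDH1A1 and NQO1, was 4803 and 6494 in the NC libraries and 5473 and 5691 in the si-circZFR libraries. The part these markers play in the results below was not tested. The files hold no value for the circle itself. Its host gene ZFR was at 26.0 and 31.8 with the control siRNA and at 5.26 and 4.63 after silencing, and fell by 2.33 on the log2 scale (SE 0.17, limma FDR 0.0386). In gene-level RPKM, reads of the circle and of linear ZFR cannot be told apart. By RT-PCR, the study saw no detectable change of ZFR with its siRNA in A549 and HCC827 cells, unlike the fall here. The reason for this difference was not tested.

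MDH1, cytosolic malate dehydrogenase, stood apart from every other shuttle gene. It was at 116.5 and 148.9 scaled RPKM with the control siRNA (replicates 1 and 2) and at 17.1 and 22.7 after silencing, from 2253, 2853, 324 and 458 reads. The lowest NC library was therefore above the highest si-circZFR library by several fold. The mean went from 132.7 ± 22.9 to 19.9 ± 3.93 (SD, n = 2), 15.01% of the NC level. On the log2(scaled RPKM + 1) scale the difference was −2.68 (SE 0.22), and the 4 comparisons of single libraries lay between −3.05 and −2.31, while NC 2 differed from NC 1 by 0.35 and si-circZFR 2 from si-circZFR 1 by 0.39. Only 4 of the 13885 genes tested had a lower log2FC. Among the 588 genes with an NC mean of at least 100 scaled RPKM, MDH1 was the lowest, and the next, the ribosomal protein gene RPL39, was at −1.89. MDH1 was chosen for its fall and was above 100 only in the NC libraries. Nothing is therefore read from its place in either ranking.

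**Figure D1:**
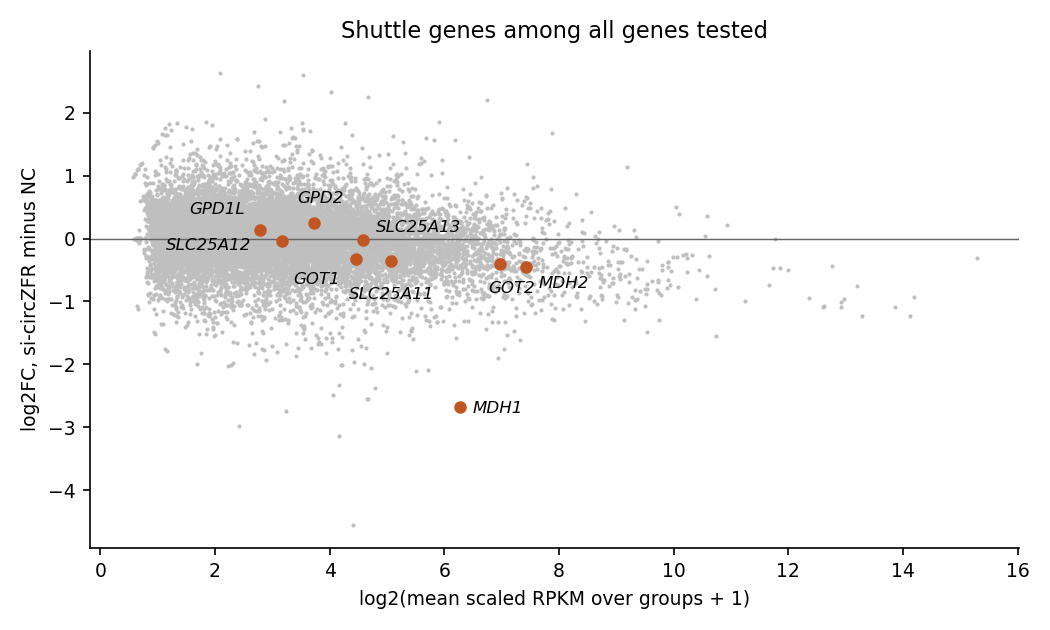
Each grey point is one of the 13885 genes tested, placed by its mean level over the groups (x axis, log2 of scaled RPKM + 1) and its log2FC between si-circZFR and NC (y axis); orange points are the 9 shuttle genes. MDH1 sits at −2.68, below all other genes of comparable or higher level, and the other 8 lie between −0.45 and 0.24, inside the cloud.

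MDH1 lies on chromosome 2 from 63588609 to 63607197 on the plus strand (GRCh38, GENCODE 44), with 9 exons and a 3′UTR of 210 bases in the transcript used. The bases of the siRNA and of MDH1 that could be compared are shown because MDH1 moved far more than its partners. The strands of the siRNA without their overhangs, 5′ to 3′ with the seed (bases 2 to 8) in capitals, are:
sense strand: cCAAGCUGgcccuuacguc
guide strand: gACGUAAGggccagcuugg
No 19-base stretch of the MDH1 transcript came closer to the target of the guide than 7 mismatches, and 69.8% of 12020 transcripts hold a stretch at least as close. The linear ZFR transcript, whose gene fell, also came no closer than 7, so this count does not set MDH1 apart. The values for the other shuttle genes were 6 (SLC25A12), 7 (MDH2, GOT1, SLC25A11, SLC25A13 and GPD1L) and 8 (GOT2 and GPD2). The match to the guide seed, CTTACGT on the transcript strand, was in the 3′UTR of 0 of the 9 genes, against 2.71% of 10446 genes. The match to the sense strand seed, CAGCTTG, was in the 3′UTR of SLC25A11, SLC25A12 and GPD2, against 14.6% of genes. The guide seed match occurred once in a coding sequence, that of GOT2 (chromosome 16, 58723765 to 58723771, minus strand). The sense strand seed match was also in the coding sequence of SLC25A12 (chromosome 2, 171833985 to 171833991, minus strand). Over all genes, 2.06% of coding sequences hold the guide seed match and 14.9% the sense strand seed match.

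A further 7-base string, TGACTCA, had been singled out in an earlier search of these same libraries, so its occurrence is a description only. Among the shuttle genes it was in the 3′UTR of MDH1 alone, against 11.7% of the 10446 genes. The related strings CTGACTCA and CTGACTC were looked for as well. Each was in the 3′UTR of 0 of the 9 genes, MDH1 included, against 3.66% and 11.3% of genes. Its first 6 bases, TGACTC, were in the 3′UTR of MDH1, MDH2, GOT1 and GPD1L, against 29.1% of genes. The 4 sites, read on the transcript strand with 10 bases on each side and the match in capitals, are:
MDH1 (chromosome 2, 63607042 to 63607048): atgtcgtcttTGACTCAagtaccaaat
MDH2 (chromosome 7, 76067193 to 76067198): taaagagattTGACTCcctttagtat
GOT1 (chromosome 10, 99397209 to 99397214): atgtggtgttTGACTCtgtacaaatt
GPD1L (chromosome 3, 32168254 to 32168259): tagatatttaTGACTCtgcgagttat
The 4 genes that share the shorter string had log2FC of −2.68, −0.45, −0.33 and 0.13 in this order. GOT1 also holds TGACTCA in its coding sequence (chromosome 10, 99403845 to 99403851, minus strand). TGACTC without the last base of TGACTCA was also in the coding sequences of MDH1 and SLC25A13. It was in the 5′UTR of MDH1 too, there as part of CTGACTC. Over all genes, 9.93% of coding sequences hold TGACTCA and 29.7% hold TGACTC. The sites were read from the reference genome alone and say nothing of binding.

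The mitochondrial partner of MDH1 is MDH2 (chromosome 7, 76048051 to 76067508), which oxidizes malate in the matrix for this shuttle and for the citric acid cycle. It was the most abundant shuttle gene, at 181.6 and 211.8 scaled RPKM in the NC libraries and 158.7 and 129.3 in the si-circZFR libraries. The groups did not overlap, but the difference of −0.45 (SE 0.21) did not pass limma (FDR 0.280). MDH2 was at 73.2% of its NC level, MDH1 at 15.01%. As a share of the summed RPKM of both malate dehydrogenases, which does not depend on the scaling between libraries, MDH1 made up 39.1% and 41.3% with the control siRNA and 9.75% and 14.9% after silencing. The mean share differed by −27.8 percentage points. There were thus 1.56 and 1.42 units of MDH2 RPKM for each unit of MDH1 in the NC libraries and 9.25 and 5.70 in the si-circZFR libraries. The summed level of both genes was 298.1 and 360.7 in the NC pair and 175.8 and 152.0 in si-circZFR.

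The aspartate aminotransferases GOT1 (cytosolic; chromosome 10, 99396870 to 99430624) and GOT2 (mitochondrial; chromosome 16, 58707131 to 58734342) interconvert aspartate and oxaloacetate at either end of the shuttle. GOT1 was at 21.4 and 25.5 scaled RPKM in the NC libraries and at 18.7 and 18.1 in the si-circZFR libraries. GOT2 was at 134.8 and 150.1 in the NC pair and 116.9 and 99.2 in si-circZFR. For both, each si-circZFR library was below each NC library, and neither passed. The log2FC was −0.33 for GOT1 (SE 0.16, limma FDR 0.301) and −0.40 for GOT2 (SE 0.19, limma FDR 0.288). In contrast to the malate dehydrogenases, the cytosolic share of the pair hardly moved: GOT1 made up 13.7% and 14.5% of their summed RPKM in the NC pair and 13.8% and 15.4% in si-circZFR, and the groups overlapped. GOT2 has pseudogenes listed beside it, with which reads may be shared. GOT2P3, the most read of these, had 79, 42, 26 and 20 reads (control libraries first), against 3865, 4266, 3277 and 2970 for GOT2.

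**Figure D2:**
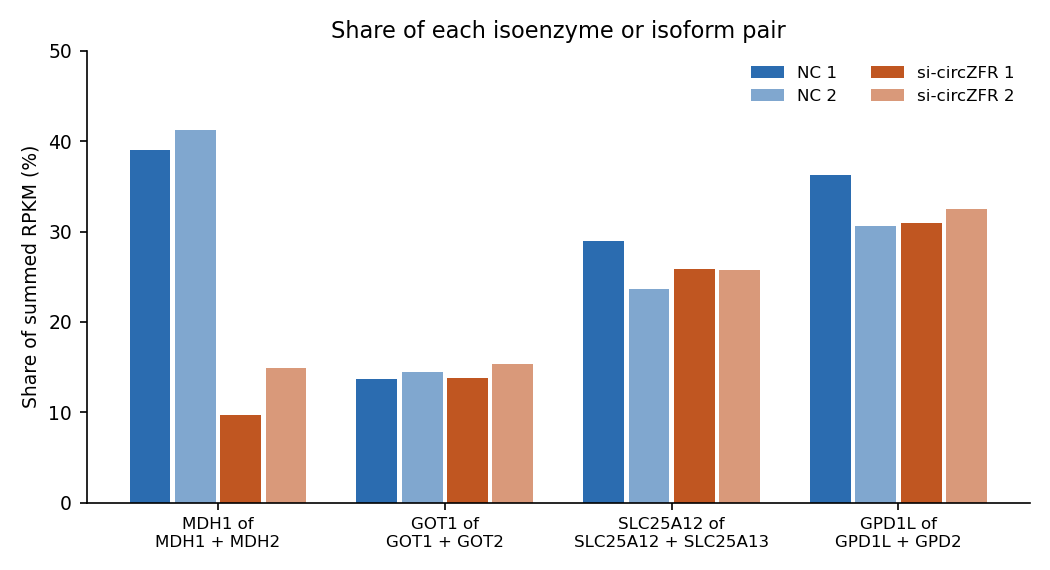
Bars give, for each library, the share (y axis, %) that the first gene of a pair takes of the summed RPKM of the pair; blue bars are NC 1 and NC 2 and orange bars si-circZFR 1 and 2, with no error bars because each bar is a single library. The MDH1 share is about 40% in the NC pair and 9.75% and 14.9% in si-circZFR, and the shares of the other pairs overlap between groups.

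Of the carriers, SLC25A11 (chromosome 17, 4937130 to 4940053) exchanges malate for 2-oxoglutarate. It was at 35.6 and 37.7 scaled RPKM in the NC libraries and at 26.8 and 29.99 in the si-circZFR libraries. The groups did not overlap, and the difference of −0.36 (SE 0.16) did not pass (limma FDR 0.256). The aspartate/glutamate carriers SLC25A12, or aralar, and SLC25A13, or citrin, export aspartate from the matrix and are regulated by calcium. SLC25A12 (chromosome 2, 171783405 to 171999859) was at 8.28 and 8.10 in the NC pair and 7.84 and 7.96 in si-circZFR. SLC25A13 (chromosome 7, 96120220 to 96322147) was at 20.3 and 26.2 in the NC pair and 22.4 and 22.9 in si-circZFR, inside the NC range. Their log2FC were −0.05 (SE 0.15, limma FDR 0.876) and −0.02 (SE 0.18, limma FDR 0.953), and both turned positive, at 0.11 and 0.14, when the RPKM were used as deposited. Citrin was the more abundant of the pair in every library, and aralar took 29.0% and 23.6% of their summed RPKM in the NC pair and 25.9% and 25.7% in si-circZFR.

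In the glycerol phosphate shuttle, both measured enzymes had log2FC above 0 and neither passed. The mitochondrial step is carried out by GPD2 (chromosome 2, 156435290 to 156613735), an FAD-linked glycerol 3-phosphate dehydrogenase. GPD2 was at 10.4 and 11.9 scaled RPKM in the NC pair and 13.0 and 13.7 in si-circZFR, and was the only shuttle gene with both si-circZFR libraries above both NC libraries. Its log2FC of 0.24 (SE 0.16) did not pass (limma FDR 0.407). GPD1L (chromosome 3, 32105689 to 32168709), a cytosolic enzyme of the GPD1 family, was the least abundant shuttle gene. It was at 5.94 and 5.24 in the NC pair and 5.85 and 6.56 in si-circZFR (log2FC 0.13, SE 0.16, limma FDR 0.672), and the groups overlapped. GPD1, the classical cytosolic enzyme of the shuttle, had 2, 0, 2 and 1 reads in the 4 libraries and was not tested. GPD1L made up 36.3% and 30.6% of the summed RPKM of GPD1L and GPD2 in the NC pair and 30.9% and 32.5% in si-circZFR.

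**Figure D3:**
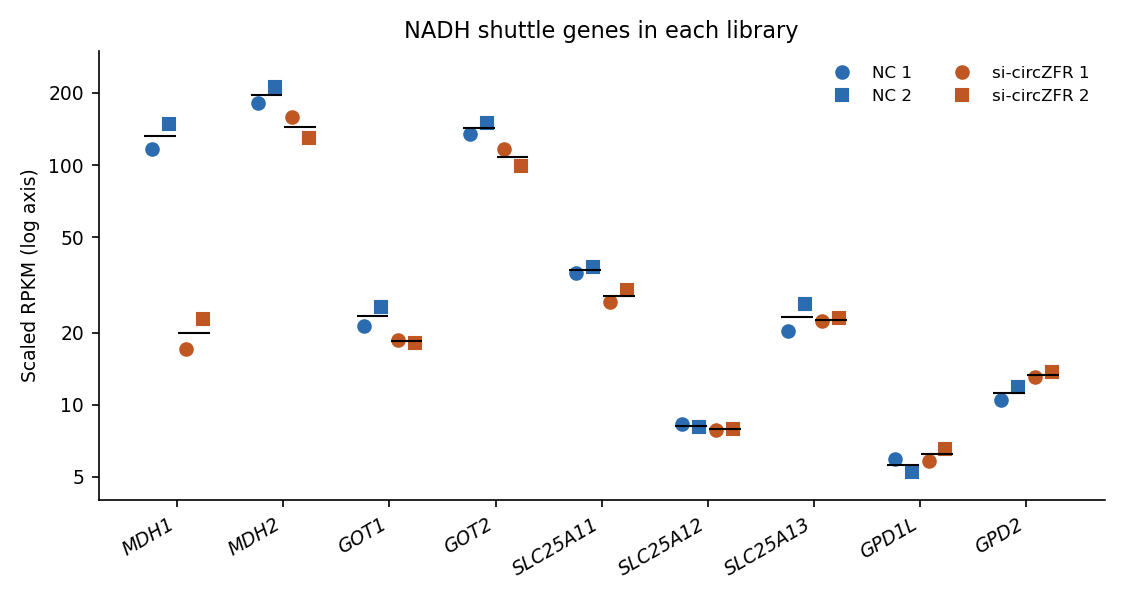
Scaled RPKM (y axis, log scale) of the 9 shuttle genes in each library; blue marks NC, orange si-circZFR, circles replicate 1, squares replicate 2, and black lines the group means. MDH1 moves from beside GOT2 to between SLC25A13 and GOT1, while the other genes stay near their NC levels.

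In the order of levels in the NC libraries, MDH2 came first, then GOT2 and MDH1, whose ranges overlapped, then SLC25A11. GOT1 and SLC25A13 came next with overlapping ranges, then GPD2, SLC25A12 and GPD1L, each below the range of the one before. In the si-circZFR libraries MDH1 came after SLC25A13, with a range that overlapped those of SLC25A13 and GOT1, and the order of the remaining genes differed only in that SLC25A13 stood above GOT1, where the ranges no longer overlapped.

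Across the 9 genes, 1 passed limma at FDR under 0.05 and |log2FC| above 1, MDH1, beside 0.0576% of all genes tested, and since MDH1 was chosen on that contrast nothing is read from this count. Of the other 8, 0 passed limma, 0 had an unadjusted p under 0.05 (all genes tested: 21.7%) and 0 passed limma-voom on recovered reads (all genes tested: 2.15%). The groups were apart, with si-circZFR the lower, for MDH2, GOT1, GOT2, SLC25A11 and SLC25A12, which is 5 of 8 where 27.9% of all genes tested were so placed. Apart with si-circZFR the higher was GPD2, 1 of 8 where 28.3% of all genes tested were. The median log2FC of the 8 was −0.19, beside 0.01 for all genes tested. With the RPKM as deposited the median of all genes was 0.15, so differences near this size depend on the scaling.

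Level, gene length and library NC 2 moved with these smaller differences, and their part was not tested. Genes of high level tended to be lower in si-circZFR. The median log2FC was −0.28 over the 518 genes at 0.5 to 2 times the mean level of MDH2, of which 33.2% were lower than MDH2, and −0.21 over the 725 genes around GOT2, of which 34.1% were lower than GOT2. Around SLC25A11 and GOT1 the medians were −0.07 and −0.03, and 23.0% and 22.04% of the genes were lower than each. Around MDH1 the median was −0.16, and 0 of 1276 genes were lower than MDH1. As MDH1 was chosen for its fall, nothing is read from its place among them. Across all genes tested, log2FC correlated with gene length (Spearman's rho 0.29 across genes, which are not independent replicates), and so did the difference between NC 2 and NC 1 (rho −0.34). With the length trend removed, MDH1 was at −2.59, MDH2 at −0.43, GOT2 at −0.39, SLC25A11 at −0.29, GOT1 at −0.30 and GPD2 at 0.11. NC 2 was the highest library for MDH1, MDH2, GOT1, GOT2, SLC25A11 and SLC25A13. Without it the log2FC were −2.50, −0.34, −0.21, −0.32, −0.32 and 0.15 in this order.

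**Figure D4:**
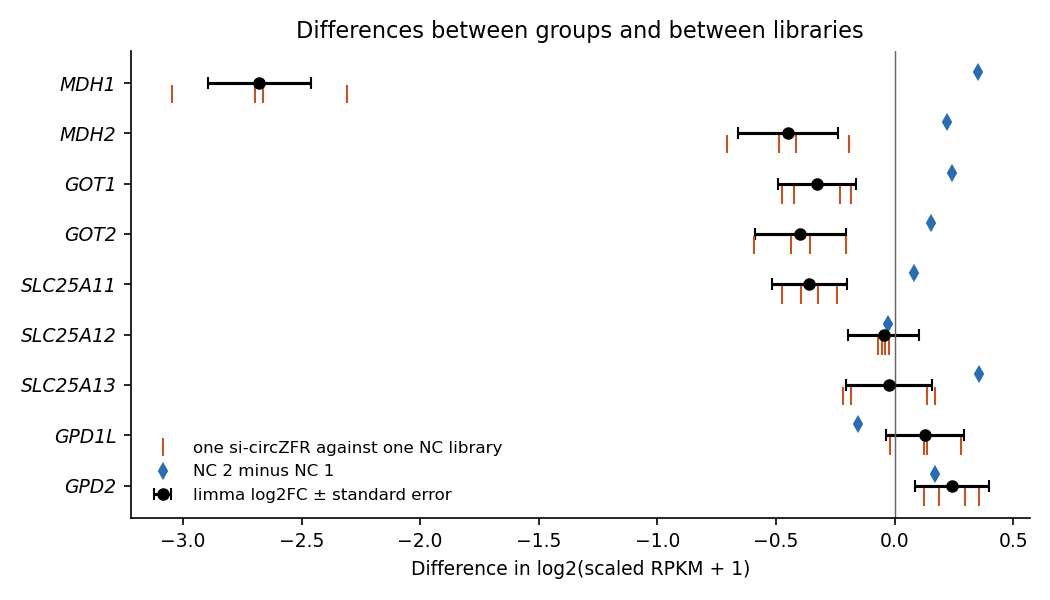
For each shuttle gene, black circles give the limma log2FC between si-circZFR and NC with its standard error, orange ticks the 4 comparisons of one si-circZFR with one NC library, and blue diamonds NC 2 minus NC 1 (x axis, log2 of scaled RPKM + 1). For MDH1 all 4 ticks lie between −3.05 and −2.31, far from its NC difference of 0.35, and for the other 8 the log2FC lie between −0.45 and 0.24.

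The overlap of transcripts bears on the reads of 3 genes, since the strand setting of the counting is not given in the sources used here. MDH1 shares 191 exon bases with WDPCP on the opposite strand, which had only 37, 38, 37 and 27 reads in the 4 libraries. SLC25A11 shares 46 exon bases with RNF167, at 1479, 1522, 1478 and 1119 reads. GOT2 shares 162 with a long noncoding RNA that is not listed by that identifier.

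The 5 genes whose pattern over the 4 libraries lay nearest to that of MDH1 (Euclidean distance of centred log2 values) were the pseudogenes TMEM185AP1, RPL41P5 and RPL7AP20, the vesicle SNARE gene VAMP3, and ZFR. The distances were 0.33 for TMEM185AP1, 0.44 for RPL41P5, 0.52 for VAMP3, 0.52 for ZFR and 0.69 for RPL7AP20. TMEM185AP1 rested on 17, 21, 0 and 1 reads, RPL7AP20 on 36, 49, 2 and 4, and VAMP3 on 738, 864, 63 and 74. TMEM185AP1 and RPL7AP20 reached an RPKM of 1 only in the NC libraries, where they were high. The nearest other shuttle gene was MDH2, in place 2024 with a distance of 2.28. Since MDH1 was chosen for its low values after silencing, genes near it had to fall strongly too. Nothing is therefore read from these places.

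To see whether the surrounding pathway moved with MDH1, 70 further genes in 6 lists were examined, of which 55 were tested. Of these, 0 passed limma (all genes tested: 0.0576%), 10 had an unadjusted p under 0.05 (all genes tested: 21.7%) and 3 passed limma-voom (all genes tested: 2.15%). The 3 were IMPDH1 and GLUD2, which were lower, and GK5, which was higher. GK5 passed the filter on low values only through the si-circZFR libraries, where it was high, so its call adds no support. The groups were apart with si-circZFR the lower for 23 of the 55 (all genes tested: 27.9%) and the higher for 11 (all genes tested: 28.3%). The median log2FC was −0.18, beside 0.01 for all genes tested. The medians of the single lists below moved under some alternatives, and the values are given where they differ by over 1.5 times.

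Among the 9 genes that make or use cytosolic NADH, 8 were tested, with a median of −0.40, which was −0.16 without NC 2 and −0.23 with the RPKM as deposited. IMPDH1, which makes xanthosine monophosphate from inosine monophosphate with NAD+, was at 62.9 and 67.3 scaled RPKM in the NC pair and 18.02 and 24.0 in si-circZFR. The groups were far apart, the log2FC was −1.60 (SE 0.19), and the limma FDR of 0.0659 missed the threshold. Its paralog IMPDH2 was at −0.43 (limma FDR 0.234) and the sorbitol dehydrogenase SORD at −0.58 (limma FDR 0.125). The glycolytic genes GAPDH and LDHA, named here for their role after their values were seen, were at −0.44 and −0.38. LDHC was not tested.

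Of 21 enzymes that make or use malate, oxaloacetate, aspartate or glutamate, 18 were tested, with a median of −0.16. Its direction depended on the processing, since it was 0.02 without NC 2 and 0.0037 with the RPKM as deposited, and it was −0.09 without si-circZFR 2. GLUD2, a glutamate dehydrogenase, was at 17.6 and 24.0 scaled RPKM in the NC pair and 8.34 and 8.72 in si-circZFR (log2FC −1.18, limma FDR 0.0818). Its near-identical copy GLUD1 was at −0.92, and reads may be split between the copies. In the opposite direction, pyruvate carboxylase PC, which makes oxaloacetate from pyruvate, was at 14.4 and 14.5 in the NC pair and 24.3 and 26.2 in si-circZFR (log2FC 0.77, limma FDR 0.0891). Cytosolic malic enzyme ME1, which turns malate into pyruvate, was at 15.5 and 19.3 in the NC pair and 30.6 in both si-circZFR libraries (log2FC 0.79, limma FDR 0.1001). PCK1, GLS2 and GPT were not tested.

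Of 7 enzymes around glycerol 3-phosphate, 6 were tested, with a median of −0.19, which was −0.04 with the RPKM as deposited and −0.39 with a mean RPKM of at least 5. The aldolase ALDOC was at 21.1 and 26.1 scaled RPKM in the NC pair and 14.8 and 12.4 in si-circZFR (log2FC −0.75, limma FDR 0.117). GK5, of the glycerol kinase family, was at 1.30 and 0.670 in the NC pair and 2.67 and 2.76 in si-circZFR (log2FC 0.92, limma FDR 0.117). In deposited RPKM, NC 1 was at 1.28 and NC 2 at 0.607. The NC pair alone would therefore not have brought GK5 into the test. Triose phosphate isomerase, TPI1, was at −0.57 (limma FDR 0.287), and GK was not tested.

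Ubiquinone-linked dehydrogenases meet GPD2 at the same electron acceptor. Their list also held electron transfer flavoprotein genes, which are not such dehydrogenases themselves. All of the list were tested, 11 of 11, with a median of −0.22. It was −0.05 with the RPKM as deposited, −0.09 with the length trend removed, −0.36 without NC 1 and −0.14 without si-circZFR 2. The succinate dehydrogenase subunit SDHD was at −0.48 (limma FDR 0.173), the dihydroorotate dehydrogenase DHODH at −0.37 (limma FDR 0.233) and the electron transfer flavoprotein ETFB at −0.51 (limma FDR 0.322). Of the 11 genes of NAD supply, 8 were tested and the median was 0.15, with 0.29 for the RPKM as deposited, 0.06 with the length trend removed, 0.09 with a pseudocount of 5 and 0.10 with a mean RPKM of at least 5. NAMPT, the rate-limiting enzyme of NAD+ salvage, was at 0.45 (limma FDR 0.236), NAPRT1 at 0.56 (limma FDR 0.270) and NMNAT1 at 0.39 (limma FDR 0.304). NMNAT1 rested on 31, 27, 53 and 52 reads and reached an RPKM of 1 only in the si-circZFR libraries. At its NC level it would not have been tested. SLC25A52, NMNAT2 and NMNAT3 were not tested.

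Of 11 other shuttle isoforms and substrate carriers, 4 were tested, with log2FC between −0.23 and 0.04. Their median was −0.17, with −0.10 once the length trend was removed, −0.08 without si-circZFR 2 and no difference to 2 decimals with the RPKM as deposited. The mitochondrial glutamate carrier SLC25A22 was at −0.23 (limma FDR 0.413), UCP2 at −0.23 (limma FDR 0.520) and the dicarboxylate carrier SLC25A10 at −0.10 (limma FDR 0.737). GPD1, MDH1B, GOT1L1, SLC25A18, SLC1A1, SLC1A2 and SLC1A3 were not tested. MDH1B, a further malate dehydrogenase gene, had 17, 26, 12 and 12 reads, so it added little to the malate dehydrogenase reads of any library.

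**Figure D5:**
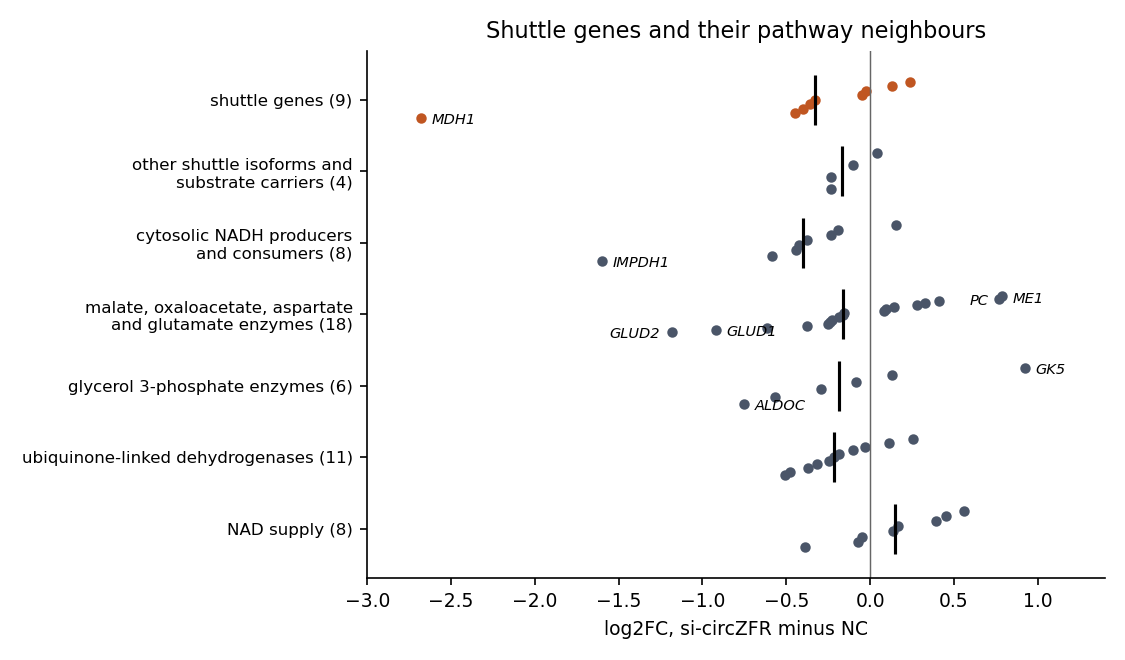
Each point is the log2FC (x axis, si-circZFR minus NC) of one tested gene, in rows by list with the number tested in brackets; orange points are the shuttle genes and black bars the medians. MDH1, chosen for its fall, is at −2.68, lower than every pathway neighbour. The lowest neighbour is IMPDH1 at −1.60, and PC, ME1 and GK5 are among the highest in their lists. GK5 passed the filter on low values only through the si-circZFR libraries.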

How the data were processed

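Total RNA (RIN over 6, as the labels require) of the 4 libraries was sequenced on the Ion Proton from an Ion Total RNA-Seq kit. The authors deposited RPKM values for 40205 genes per library; the labels name GRCh37 and the study hg38, the aligner is not given in the sources used here, and the study names SVA and edgeR. Whole reads were recovered from the RPKM steps for 24284 of 24289 genes above 0 in any library (99.98%, tolerance 0.002 reads), and limma-voom on these reads was an alternative, by which 298 genes passed. Because the values are RPKM, limma 3.58.1 (R 4.3.3) was run on log2(scaled RPKM + 1) with a trended prior variance, after scaling the libraries by trimmed mean log ratios, with 30% of the ratios and 5% of the levels trimmed. The test covered genes that reached an RPKM of 1 in 2 or more libraries, with Benjamini-Hochberg FDR over all 13885. A gene passed at FDR under 0.05 and |log2FC| above 1. Fold changes on this scale understate the change of low genes. Nothing in the labels says that the replicates are separate cultures, so FDR values measure the spread between these libraries, and an exact permutation test of 2 against 2 cannot give a two-sided p below 0.333.

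The shuttle genes, the lists and the tests were chosen with earlier results of these data known. Named are the shuttle genes, ZFR, the 3 genes with the smallest p and those not tested in each list, the 5 genes nearest to MDH1, pseudogenes, overlapping genes and cell line markers, of which 1 is not reported here. Outside this rule, GAPDH, LDHA, GLUD1 and RPL39 were named after their values were seen. Positions and sequences came from GRCh38 with GENCODE 44, and no coordinate came from the files. The siRNA came from the study's list of oligonucleotides. Scripts were tested on simulated data. Python 3.11.15, numpy 2.4.6, pandas 2.3.3 and matplotlib 3.10.9 were used.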

Additional observations from a re-analysis of the deposited data

How the results depend on the processing

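With 2 libraries a group, the number of calls changed with the filter, the pseudocount and the variance model. MDH1 kept its direction in all 15 alternatives, with log2FC from −2.87 to −2.47. These use the same libraries on which MDH1 was chosen for its fall, so its direction here adds no support. Of all genes, 8 passed as reported, 0 with no filter on low values (3652 at an unadjusted p under 0.05), 155 with a mean RPKM of at least 5, 5 with a pseudocount of 0.1, 1 without the trend, 14 with the length trend removed, 298 by limma-voom and 161 with a filter of 1 CPM in at least 2 libraries, which was chosen after seeing the data. Leaving out 1 library gave 0 to 692 (692 without NC 1, 0 without any other). The group left with 1 library is then assumed to vary like the other, whose pair alone gives the spread, so these counts say little about stability. Of the shuttle genes, 1 passed as reported, 0 with no filter on low values, 0 with a pseudocount of 0.1, 0 without the trend, and 0 to 1 with 1 library left out (1 without NC 1, 0 without NC 2, si-circZFR 1 or si-circZFR 2). Of the pathway neighbours, 0 passed as reported, 2 with a mean RPKM of at least 5, 3 by limma-voom, 1 with the CPM filter and 0 to 3 with 1 library left out (3 without NC 1). SLC25A12 turned from −0.05 to 0.11 with the RPKM as deposited, and SLC25A13 from −0.02 to 0.14 with the RPKM as deposited, 0.016 with a mean RPKM of at least 5 and −0.20 to 0.15 with 1 library left out (0.15 without NC 2). The other shuttle genes kept their direction. The cause was not tested.

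The deviations of NC 1 and si-circZFR 1 from their group means hardly correlated over genes (0.07). With 2 libraries a group this cannot show whether the replicate numbers pair the samples. With the replicate block, 17 of all genes passed, with 1 of the shuttle genes and 0 of the pathway neighbours. GPD1L rested on 247 to 326 reads a library and SLC25A12 on 359 to 389, so counting error limits small differences in these genes most.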
